A study of Mus musculus with 4 samples.

Results

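The genes described here lie in 1 proximal block of mouse chromosome 18, chr18:20761177-38117206 in the mm9 build, a stretch of 17.4 Mb that runs from the desmosomal cadherin gene Dsg2 to Fchsd1 and holds the clustered protocadherin genes. Members were all non-control probes of the array whose annotated mm9 position fell in this interval, each gene being read by the brightest of its probes. This gave 204 genes from 309 probes, of 28144 genes on the array, and 2 further genes of the interval are not reported. The interval had been drawn around genes that were lower in one cell line than in the other in these same arrays, so that every difference between the lines given below for its members is a description and was not tested.

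The arrays compared 2 stable derivatives of EPH-4, a non-malignant mouse mammary epithelial cell line: EV-50, which carried the empty H1-2 vector and kept its glucocorticoid receptor (GR), and shGR-19, which carried a short hairpin RNA vector directed against GR. Both lines had been co-transfected with a puromycin resistance vector, were kept in serum-free medium with 2 µg/mL puromycin, and received no glucocorticoid. Each line was grown from 1 colony, so that a difference caused by the hairpin and a difference between clones cannot be told apart. There were 2 arrays per line, on 1 slide, with 300 ng RNA labelled for each, and as the labels do not say whether the duplicates came from separate cultures, their spread may be technical.

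Protocadherins are cell-surface adhesion proteins of the cadherin superfamily, and the alpha, beta and gamma genes stand in tandem in 1 cluster. In the alpha and gamma groups each variable first exon is spliced to constant exons shared by the whole group, whereas each beta gene is a single coding exon. In neurons, where the cluster is best known, each cell expresses its own combination of variable exons, chosen at promoters that depend on CTCF, cohesin and DNA methylation. The other genes of the interval are of varied function and include desmosomal, chromatin, RNA processing, ubiquitin, mitotic and innate immune genes.

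The deposited data came in 2 forms, between which the contrast of the lines was not the same. The first was the scanner signal of each array, used here as log2 signal minus the array's 75th percentile. The second was the authors' table of log2 values, which gives each probe relative to its own median. On the scanner side, the arrays labelled replicate 1 of the 2 lines differed from each other less (SD over genes outside chromosome 18 of 0.38) than the 2 arrays of EV-50 did (0.70) or the 2 arrays of shGR-19 (0.75). In the value table the arrays of a line were closer to each other (0.32 and 0.33) than to those of the other line (0.63 to 0.64). Nr3c1, the gene for GR, which lies outside the block at chr18:39570619-39570678, had scanner values of 1.81 and 1.92 for EV-50 and of 1.46 and -0.03 for shGR-19, so that most of its decrease was on 1 array. In the table it was lower in shGR-19 by a log2 difference of -1.94 ± 0.05 (SE; limma adjusted p = 0.00216). Over 24436 kept probes, each array centred on the probe's median, the scanner array labelled shGR-19 replicate 2 correlated with the table's shGR-19 columns (Pearson r of 0.53 and 0.55), and that labelled EV-50 replicate 2 with its EV-50 columns (0.30 and 0.32). For the array labelled shGR-19 replicate 1 the r with the shGR-19 columns was -0.08 and -0.06. These are descriptions across probes, which are not independent. Whether each scanner file holds the array that its label names could not be settled, so that a scanner difference below is one between files as labelled. For the block and the genes described at length both sources are given, and where only 1 value is given it is a log2 difference in the table. All 8 mammary epithelial markers examined were above background on all 4 arrays, while Ptprc, Itgam, Pecam1, Cdh5 and Snap25, which mark immune, endothelial and neuronal cells, were above background on none. Of the 8 epithelial markers 1 was called in the table, the myoepithelial keratin Krt14 (log2 -1.13), and the other 7 lay between -0.30 and 0.23. Of the mesenchymal markers Vim and Pdgfra were called higher (1.82 and 1.16), while Fn1 (-0.64) and Zeb1 (0.13) were not called. The part of these differences in the block's values was not tested.

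Of the 204 members, 117 were kept because both arrays of one line or the other read their probe well above background, 96 of them on all 4 arrays and 21 on 3. Of the 87 others, 61 were above background on no array, 22 on 1 array and 4 on 1 array of each line. No kept member was above background in one line alone. The counts and medians below describe the kept members only.

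Expression across the block was lower in shGR-19 than in EV-50 in the authors' table. The median member had a log2 difference, shGR-19 minus EV-50, of -0.45 against 0.02 over all 16734 kept genes. The lower and upper quartiles were -0.71 and -0.15, and the extremes were -3.23 and 1.49. In all, 97 of 117 members were lower (82.9%), beside 47.8% of all genes. With limma at an adjusted p below 0.01, 30 members were called lower (25.6%) and none higher, beside 6.52% and 6.11% of all genes, and 87 were called in neither direction. Since the interval was chosen on this contrast, nothing was read from these shares. For the same 30 calls, leaving out any 1 of the 4 columns, or adding the replicate number as a block, gave 0 calls.

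On the scanner arrays the median member differed by -0.18, and 93 of 117 were lower. The pair of arrays labelled replicate 1 had a block median of 0.02, with 43 members lower (36.8%, beside 40.6% of all genes). The pair labelled replicate 2 had a block median of -0.42, with 96 members lower (82.1%, beside 47.6%). Over the block, shGR-19 replicate 2 lay below each other array, by medians of -0.42 to -0.30, and EV-50 replicate 2 lay above EV-50 replicate 1 by 0.11, against -0.05 outside chromosome 18. Leaving out shGR-19 replicate 2 gave a scanner median of -0.01, whereas leaving out shGR-19 replicate 1 gave -0.33. limma called 0 of 117 members in the scanner data and 0 of all genes, and at an unadjusted p below 0.05 it gave 1 member and 149 of all genes. Both arrays of shGR-19 lay below both of EV-50 for 18 members (15.4%, beside 6.3% of all genes) and above both for 8 (6.84%, beside 12.2%).

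**Figure D1:**
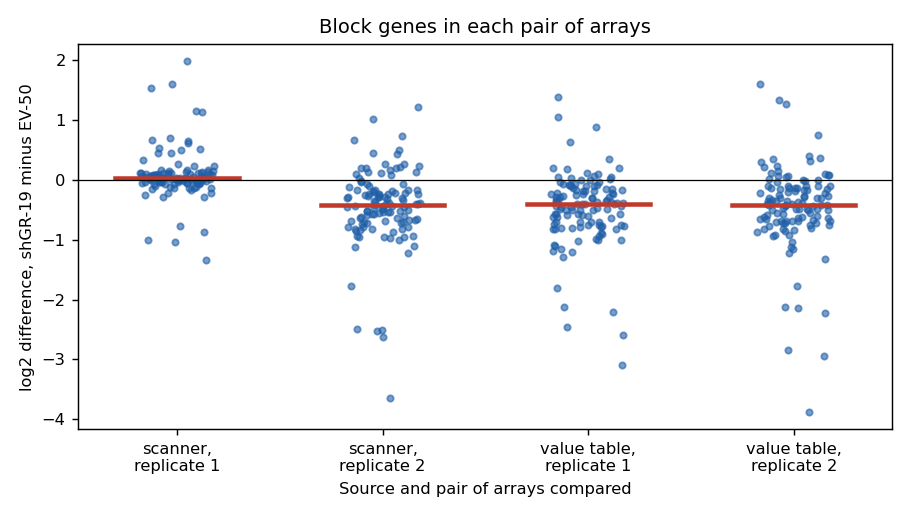
Log2 difference, shGR-19 minus EV-50, of each of the 117 kept block genes (points) for the arrays of the same replicate number, in the scanner data and in the value table; red lines are medians. The scanner pair labelled replicate 1 is centred near 0 (median 0.02), while the scanner pair labelled replicate 2 (-0.42) and both pairs of the table (-0.40 and -0.42) lie below 0.

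The lower level was spread along the block and not held by 1 end of it. No kept member lay between 25750014 and 30484259. The 29 kept genes before this gap had a table median of -0.45, of which 24 were lower and 9 called. The 67 genes from the gap to the protocadherins also had a median of -0.45, with 57 lower and 15 called. The 21 genes from the first protocadherin to the end of the block had a median of -0.44, with 16 lower and 6 called. Without the clustered protocadherins the median of the block stayed at -0.45, over 101 genes. Of all genes 6.52% were called lower, and nothing was read from the counts of the stretches.

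The rest of chromosome 18 was lower too. Its 271 kept genes other than Nr3c1 had a table median of -0.29, with 207 lower (76.4%, beside 47.8% of all genes). Of them 47 were called lower (17.3%) and 3 higher, beside 6.52% and 6.11% of all genes. The 59 genes before the block had a median of -0.33 and the 212 after it -0.27. In bins of 5 Mb, every bin of chromosome 18 had a median below 0, from -0.82 in a bin with 1 gene and -0.45 in the first bin of the block to -0.03 in a bin with 3 genes. A bin outside the block was as low as one inside it, with -0.42 from 35 Mb to 40 Mb after its first probe and -0.42 from 10 Mb to 15 Mb. The bin from 15 Mb to 20 Mb (-0.33) runs past the end of the block at 17.4 Mb and also holds outside genes, Nr3c1 among them. Of the 59 genes before the block 25.4% were called lower, beside 25.6% in the block, which had itself been chosen for its low values. The scanner median of the rest of the chromosome was -0.14, with 0.01 for the arrays labelled replicate 1 and -0.29 for those labelled replicate 2.

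**Figure D2:**
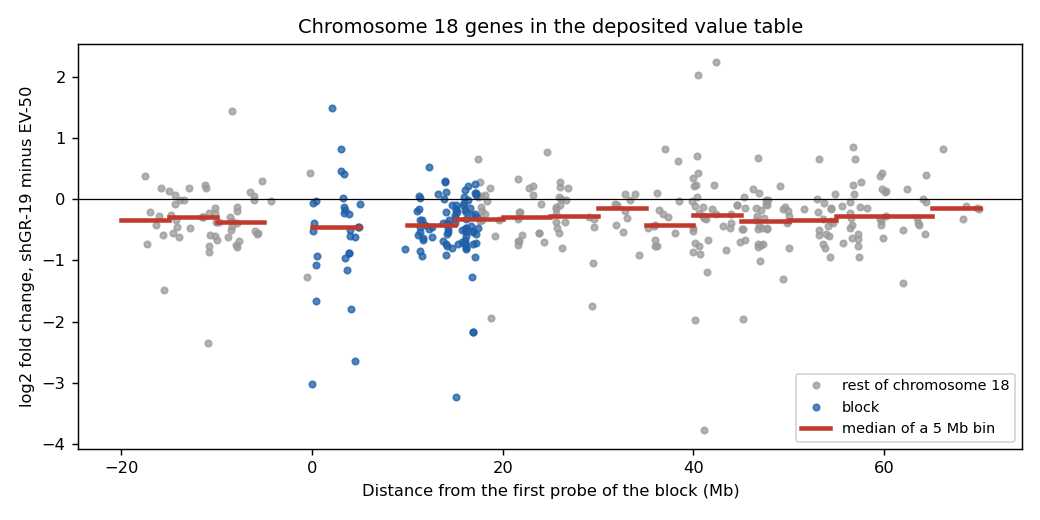
Log2 difference in the value table, shGR-19 minus EV-50, of each kept gene of chromosome 18 (points; block in blue, rest of the chromosome in grey) against the distance in Mb from the first probe of the block; red bars are medians of 5 Mb bins. The bin medians stay below 0 on both sides of the block, and single genes reach -3.23 in the block and -3.78 elsewhere on the chromosome.

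Among the 20 chromosomes examined, chromosome 18 had the lowest table median, at -0.32 over 389 genes, with 78.4% lower. Chromosomes 6 and 15 followed at -0.21 and -0.16, chromosome 16 was highest at 0.28, and the others lay between -0.03 and 0.09. For the scanner arrays labelled replicate 2 the medians of chromosomes 18, 6, 15 and 16 were -0.33, -0.22, -0.16 and 0.23. For those labelled replicate 1 all chromosomes lay between 0.01 and 0.04. Within the table, a stretch of 61 kept genes on chromosome 9 had a median of -0.46, beside -0.45 in the block. A stretch of 35 kept genes on chromosome 15 had one of -0.36. How these stretches were chosen is not given here, and they may, like the block, have been picked for low values. How common such a median is among stretches of other chromosomes was not tested.

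**Figure D3:**
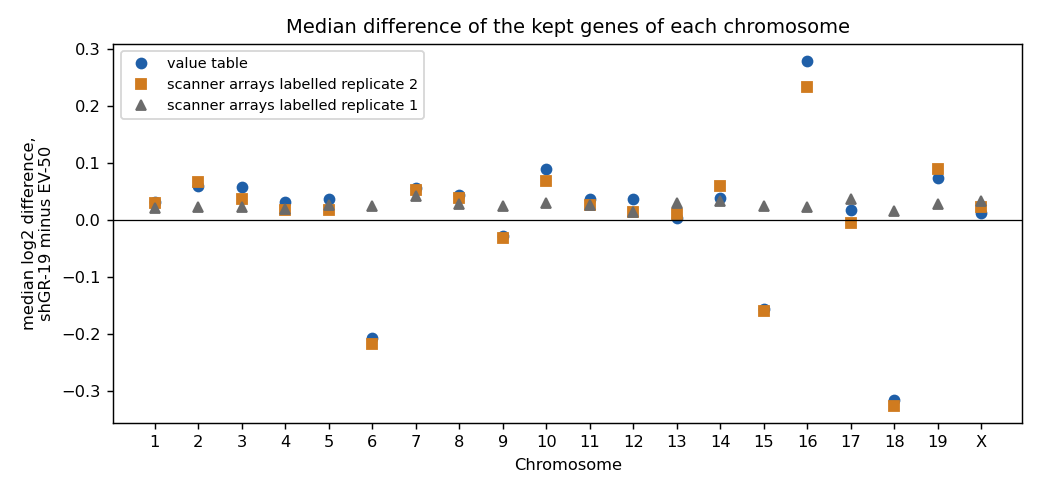
Median log2 difference, shGR-19 minus EV-50, of the kept genes of each chromosome, in the value table (circles), the scanner arrays labelled replicate 2 (squares) and the scanner arrays labelled replicate 1 (triangles). Chromosome 18 is lowest in the first and second of these (-0.32 and -0.33) and lies at 0.02 in the third.

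The clustered protocadherins did not all differ between the lines in the same way. Of 34 members, 16 were kept: 4 of 5 named as alpha, 8 of 22 beta and 4 of 7 gamma. The probe of Pcdha4-g, a transcript named as alpha, lay within the gamma cluster. The table median over the 16 was -0.25, with 11 lower and 3 called lower (18.75%, beside 6.52% of all genes). All 8 beta genes were lower, with a median of -0.64, and the 3 calls were among them. Of the alpha genes 2 of 4 were lower (median 0.03), and of the gamma genes 1 of 4 (median 0.10), with no call in either. The scanner medians were -0.27 for beta, -0.13 for alpha and 0.32 for gamma. Only 8 of the 16 were above background on all 4 arrays, and over those 8 the table median was 0.03.

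Pcdhb21 and Pcdhb22, neighbours at chr18:37675857-37675916 and chr18:37680669-37680728, had the largest differences of the cluster. In the table Pcdhb21 was at 1.17 and 1.04 in EV-50 and at -1.04 and -1.10 in shGR-19, a 4.51-fold lower level. Pcdhb22 was at 1.06 and 1.08 in EV-50 and at -1.06 and -1.15 in shGR-19, also 4.51-fold lower. The 2 lines did not overlap in either gene. The scanner values of Pcdhb21 were -4.69 and -3.31 for EV-50 and -4.76 and -5.81 for shGR-19. Pcdhb22 was at -3.98 and -4.22 and at -4.76 and -6.84, and was above background on only 1 of the shGR-19 arrays. The order of the lines was the same in both sources, but on the scanner arrays labelled replicate 1 Pcdhb21 differed by only -0.08 and Pcdhb22 by -0.78.

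Pcdhb7, at chr18:37504330-37504389, was at 0.64 and 0.56 in EV-50 and at -0.56 and -0.76 in shGR-19, 2.4-fold lower. Its scanner values overlapped between the lines, with -4.51 and -3.50 for EV-50 and -3.86 and -4.47 for shGR-19, and it was above background on 1 of the EV-50 arrays. By their brightest probes, the other 5 kept beta genes were lower by less and were not called. Their table differences were -0.73 for Pcdhb17, -0.54 for Pcdhb18, -0.51 for Pcdhb16, -0.44 for Pcdhb5 and -0.26 for Pcdhb10. A further kept probe of Pcdhb17 differed by -1.93 (SE 0.60) and one of Pcdhb16 by -0.82, and neither was called. The order of the beta genes thus depended on the probe read. For Pcdhb10, Pcdhb17 and Pcdhb18 1 of the EV-50 arrays was not well above background. The scanner difference of Pcdhb10 had the other sign (0.90), as did that of Pcdhb18 (0.32).

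The alpha and gamma genes differed by less in the table, in both directions. Pcdha6 differed by -0.01, Pcdha9 by 0.21, Pcdhac2 by -0.15 and Pcdha4-g by 0.07 in the table. Among the gamma genes Pcdhga1 differed by -0.24, Pcdhga4 by 0.11, Pcdhga7 by 0.25 and Pcdhga9 by 0.10. All 4 gamma genes were higher in shGR-19 on the scanner arrays, with differences of 0.37, 0.32, 0.32 and 0.03 in the same order. Of these, Pcdhga1 and Pcdhga7 were well above background on only 1 of the EV-50 arrays. They were thus kept only through the line in which they were higher there, and nothing was read from this count. Pcdha9 differed there by 1.12, with -3.53 and -3.49 in EV-50 and -1.56 and -3.22 in shGR-19, while Pcdha6, Pcdhac2 and Pcdha4-g differed by -0.53, -0.07 and -0.19. The SE of the table difference was 0.73 for Pcdhga1 and 0.56 for Pcdhga7, against 0.05 for Pcdhga9. Pcdhga9, whose probe at chr18:38001376-38001435 lay beyond all the other kept protocadherin probes, was at 1.76 and 1.83 in EV-50 and at 1.80 and 1.86 in shGR-19 in the scanner data. These 4 values lay within 0.10 of each other. It lay past the probe of Pcdhga12 too, at chr18:37929550-37929609, which was not kept. A probe in the shared constant exons would read every gamma transcript. Whether the probe of Pcdhga9 did so was not examined here, so that its values may not be those of 1 gene. The closest probe of another member of the cluster shared 24 to 41 of the 60 bases, compared without gaps. Whether a probe also matches the transcripts of other copies was not tested, so that reads of near-identical copies remain uncertain.

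**Figure D4:**
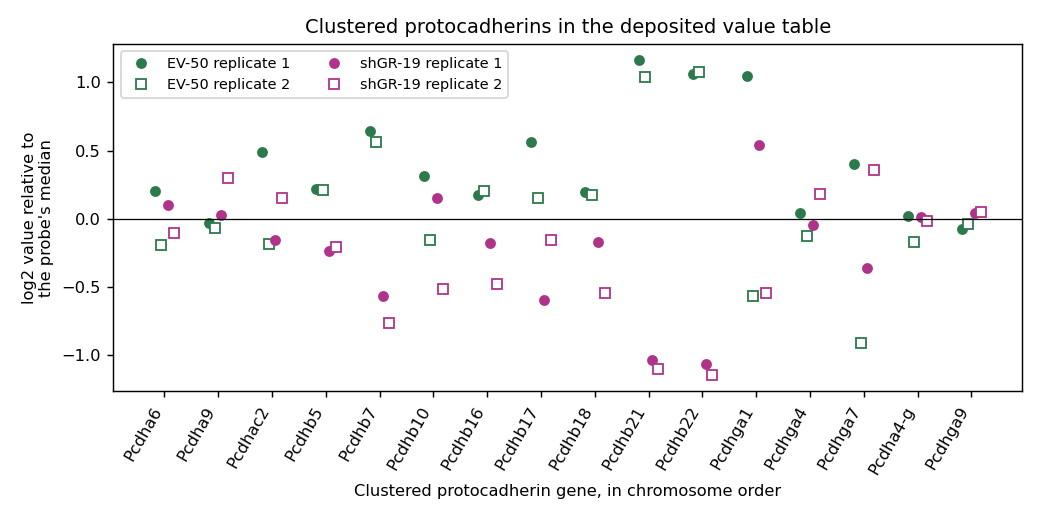
Log2 value in the value table, relative to the probe's median, of the 16 kept clustered protocadherins in chromosome order (green EV-50, magenta shGR-19; filled circles replicate 1, open squares replicate 2). Pcdhb7, Pcdhb21 and Pcdhb22 separate the lines by more than 1, while the alpha and gamma genes overlap or lie close together.

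Outside the protocadherins, 5 members were called and lower by more than 2-fold, giving 8 in all (6.84% of the kept members, beside 2.7% of all genes). All 5 lay in the first stretch of the block. Dsg2, a desmosomal cadherin that joins epithelial cells and the first gene of the interval, was at 1.44 and 1.49 in EV-50 and at -1.65 and -1.44 in shGR-19 in the table, 8.1-fold lower. On the scanner arrays it was at -1.69 and -1.36 for EV-50 and at -1.68 and -3.89 for shGR-19. Its low value was thus on 1 array only in the scanner data. A further kept probe of Dsg2 within the interval had a table difference of -2.67, beside -3.02 for the brightest. Fhod3, a formin that assembles actin filaments, at chr18:25289058-25289117, was at 1.23 and 1.34 in EV-50 and at -1.23 and -1.50 in shGR-19, 6.27-fold lower. On the scanner arrays it was at -0.18 and 0.73 for EV-50 and at -0.40 and -1.79 for shGR-19, so that the lines were separated in both sources.

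Mocos, the sulfurase that activates the molybdenum cofactor of xanthine dehydrogenase and aldehyde oxidase, was at 0.87 and 0.92 in EV-50 and at -0.95 and -0.87 in shGR-19, 3.48-fold lower. It was high on only 1 scanner array, with 0.63 and 2.32 for EV-50 and 0.78 and 0.55 for shGR-19. Here the array that stood apart was that labelled EV-50 replicate 2, and not that labelled shGR-19 replicate 2. Galnt1, which starts mucin-type O-glycosylation, was at 0.53 and 0.69 in EV-50 and at -0.56 and -0.53 in shGR-19, 2.22-fold lower. Its scanner values were -0.30 and 0.23 for EV-50 and -0.42 and -0.72 for shGR-19, without overlap. Rnf125, a ubiquitin ligase of the antiviral RNA sensors, was at 0.50 and 0.61 in EV-50 and at -0.50 and -0.55 in shGR-19, 2.11-fold lower. Its scanner values overlapped, at -1.48 and -2.14 for EV-50 and at -1.77 and -3.36 for shGR-19. The array's C730049O14Rik, counted as a separate member, also has the RefSeq symbol Rnf125. It had a table difference of -1.66 (SE 0.31) and was not called.

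**Figure D5:**
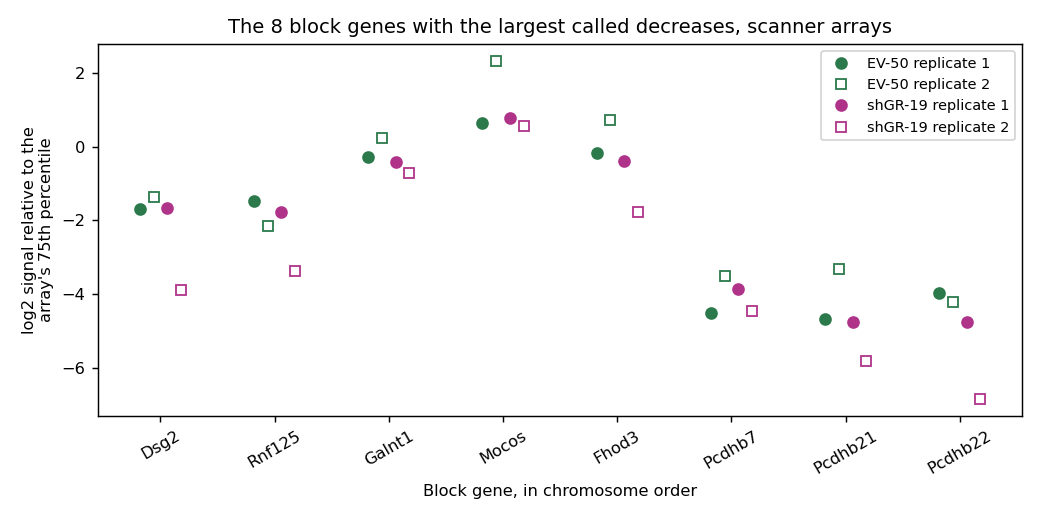
Scanner log2 signal relative to the array's 75th percentile of the 8 block genes called lower by more than 2-fold in the value table, in chromosome order (green EV-50, magenta shGR-19; filled circles replicate 1, open squares replicate 2). The arrays labelled replicate 1 of the 2 lines lie close together for most genes, and the array labelled shGR-19 replicate 2 is the lowest for all but Pcdhb7.

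The largest table difference of any member belonged to Ecscr, an endothelial cell-surface gene named here after its values were seen, at chr18:35872762-35872821. It was at 1.34 and 1.25 in EV-50 and at -1.25 and -2.63 in shGR-19, and with a log2 difference of -3.23 ± 0.52 (SE) it was not called. On the scanner arrays it was at -2.81 and -4.45 for EV-50 and at -4.14 and -8.10 for shGR-19, the last of which was not above background. The 2 lines overlapped there.

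At the edges of the interval, which had been drawn on these values, the first gene inside, Dsg2, was at -3.02 and the last, Fchsd1, an adaptor of the actin and membrane machinery, at -0.47. Just before the start, Dsg1b was at 0.43 and the desmosomal cadherin Dsc2 at -1.28, the latter called lower (limma adjusted p = 0.00536). Just after the end, Rell2 was at 0.04, the unannotated transcript AK035983 at 0.66 (SE 1.28) and the protocadherin Pcdh1, which is not of the cluster, at 0.28. Dsg1b and AK035983 were each well above background on only 1 of the EV-50 arrays. The scanner differences of these 5 outside genes were -0.03, -0.53, -0.16, 0.79 and 0.11 in the same order.

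Of the 16 listed genes of transcription and chromatin 14 were kept, and all 14 were lower in the table and in the scanner data, with table and scanner medians of -0.60 and -0.25. For the scanner arrays labelled replicate 1 only 4 of the 14 were lower (median 0.03), against all 14 for those labelled replicate 2 (median -0.54). The block they belong to was 82.9% lower and 25.6% called in the table, and all genes 47.8% and 6.52%, and nothing was read from the lists' shares. Of these, 5 were called in the table, namely Ino80c, Taf7, Brd8, Pura and Ercc3. Ino80c, a subunit of the INO80 chromatin remodeller, had the largest decrease, at 0.46 and 0.46 in EV-50 and -0.53 and -0.46 in shGR-19, or 1.94-fold lower. Its scanner values were 1.01 and 1.20 for EV-50 and 1.04 and 0.49 for shGR-19. Ercc3, the helicase of the transcription factor TFIIH, was 1.54-fold lower. Taf7, a subunit of TFIID, and Brd8, of the NuA4 acetyltransferase complex, had table differences of -0.94 and -0.92. Sap130, of the Sin3 corepressor, was at -0.58 and the zinc finger gene Zfp35 at -0.13, and neither was called.

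Genes of RNA processing and translation were also all lower in both sources, 12 of 12, with table and scanner medians of -0.46 and -0.26. In the scanner pair labelled replicate 1, however, 4 of 12 were lower (median 0.04), against all 12 in the pair labelled replicate 2 (median -0.56). Hars, the cytoplasmic histidyl-tRNA synthetase, was at 0.43 and 0.38 in EV-50 and at -0.40 and -0.38 in shGR-19, 1.73-fold lower, and was called together with the translation repressor gene Eif4ebp3 (-0.72). On the scanner arrays Hars was at 4.64 and 4.71 for EV-50 and at 4.75 and 4.02 for shGR-19. Only the array labelled shGR-19 replicate 2 was low. The splicing factor genes Ik and Zmat2 had table differences of -0.47 and -0.21, and the polyadenylation factor Wdr33 one of -0.45, with no call.

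All 9 genes of protein folding, ubiquitin and mitochondria were lower in both sources, with a smaller table median of -0.22. Here too the scanner pair labelled replicate 1 had only 3 of 9 lower (median 0.03), and the pair labelled replicate 2 all 9 (median -0.29). Rnf125, given above, and Sil1, a nucleotide exchange factor of the endoplasmic reticulum chaperone BiP (-0.80), were called. The ubiquitin ligase Rnf138 was at -0.02, the ubiquitin-conjugating enzyme Ube2d2 at -0.22 and the mitochondrial outer membrane gene Slc25a46 at -0.18. Among 4 mitotic genes, 3 were lower in the table. Kif20a, a kinesin of cytokinesis, was at 0.34 and 0.35 in EV-50 and at -0.44 and -0.34 in shGR-19, 1.66-fold lower, and was called, with scanner values of 4.98 and 5.43 for EV-50 and 5.08 and 4.57 for shGR-19. Cdc25c, the phosphatase that activates CDK1, was at -0.38, Cdc23 at -0.21 and the microtubule end-binding gene Mapre2 at 0.01.

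Adhesion, cytoskeletal, signalling and neuronal genes were mixed. Of 7 kept adhesion and cytoskeletal genes, 4 were lower in the table and 3 in the scanner data, and Fhod3 and the formin gene Diap1 (-0.57) were called. The alpha-catenin gene Ctnna1, which links cadherins to actin, differed by -0.09. The dystrobrevin gene Dtna differed by 0.46 and the brush border myosin Myo7b by 0.02. Of 6 kept signalling and innate immune genes, 4 were lower and 2 called. Cd14, the lipopolysaccharide co-receptor, was at 0.41 and 0.40 in EV-50 and at -0.40 and -0.42 in shGR-19, 1.76-fold lower, and its scanner values did not overlap either, at 1.34 and 1.45 against 1.19 and 0.78. The kinase gene Map3k2 was at -0.66. The DNA-sensing adaptor Tmem173 was at -0.17, the anticoagulant protease gene Proc at -0.34 and the cytokine Tslp at 0.52, with an SE of 0.65. Tslp was well above background on only 1 of the EV-50 arrays, and so was kept through the line in which it was higher. Of 6 neuronal genes, Nol4 and Reep2 were kept. Nol4 had the largest increase of the block, at -0.85 and -0.53 in EV-50 and at 0.53 and 1.07 in shGR-19, and was not called. It was well above background on 1 of the EV-50 arrays and both of shGR-19, and so was kept through the line in which it was higher. Another kept probe of Nol4 differed by 0.28.

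Where a member had other kept probes, they did not always match the brightest. There were 60 such probes of 44 members, of which 7 had the other sign and 10 the other call in the table. Those with the other sign belonged to Fam13b, Ammecr1l, Cdc23, Epb4.1l4a, Ube2d2 and Mapre2. A further probe of Mapre2 differed by -0.38 where the brightest differed by 0.01, and a further probe of Hars by -1.11 without being called. A further probe of Slc25a46 differed by -0.76 and was called, where the brightest, at -0.18, was not.

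Other protocadherins and the regulators of the cluster lay outside the interval and were compared on the table. Of 12 non-clustered protocadherins on the array 6 were kept, and they differed in both directions. Pcdh7 was lower in shGR-19 (log2 -1.61, limma adjusted p = 0.00263), as was Pcdh17 (-0.65, adjusted p = 0.00580). Pcdh18 was higher (0.83, adjusted p = 0.00848). Pcdh9 was well above background on both shGR-19 arrays and on neither EV-50 array, so that its EV-50 level is only a bound. It was thus kept only through the line in which it was higher. Its mean scanner value in shGR-19 was at least 1.43-fold above the lowest signal well above background on each EV-50 array. As the filter favoured this direction, that value and its call in the table are descriptions only. The scanner differences of Pcdh7, Pcdh17 and Pcdh18 had the same signs, at -0.73, -0.35 and 0.28, with no call. These signs came from the arrays labelled replicate 2 (-1.52, -0.79 and 0.64). Those labelled replicate 1 had the other sign for each gene (0.07, 0.08 and -0.08). All 16 listed regulators of protocadherin promoters, among them Ctcf, the cohesin genes and the DNA methyltransferases, were kept, and limma called 0 of them in the table. Their median was -0.12, from -0.52 for Stag2, a cohesin subunit, to 0.43 for the DNA methyltransferase Dnmt3a, and 8 had an unadjusted p below 0.05, as had 8162 of all 16734 genes.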

How the data were processed

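RNA of the 2 lines, labelled in duplicate, had been hybridized by the authors to Agilent Whole Mouse Genome one-colour arrays. The authors deposited scanner files with the background-subtracted intensity of each spot, made with Feature Extraction 10.5.1.1 (per the submitters' processing notes), and log2 values calculated in GeneSpring, relative to each probe's median. Its exact scaling is not given in the sources used here.

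Control and outlier spots (74 to 139 per array) were left out, spots of a probe were averaged, and log2 intensity minus the 75th percentile of the 41174 probes was taken (percentiles 516 to 584). A probe was kept if both arrays of either line read it well above background, as 23290 to 27358 spots per array were. No spot was saturated. The value table was used with the same probes. Both were fitted with lmFit and eBayes (limma 3.58.1, R 4.3.3), with Benjamini-Hochberg adjustment over all kept probes and calls at an adjusted p below 0.01. A gene was read by its brightest probe. An exact permutation of the arrays cannot give a p below 0.333 and was not used. Precision is limited by the number of arrays. The fits were tested on simulated data.

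The members and lists were chosen with earlier results of these data known. Genes named were the kept clustered protocadherins, called genes over 2-fold, genes at the edges, up to 4 per list, Nr3c1 and called genes of the comparison lists. Ecscr, Taf7, Brd8, Pura, Eif4ebp3, Sil1, Diap1, Map3k2, Stag2, Dnmt3a, Fn1, Zeb1, C730049O14Rik, Pcdhga12 and the genes with differing probes were named after their values were seen. Names are those of the array, of which 147 of 204 matched RefSeq symbols. Tmem173, Diap1, Ube2d2 and Epb4.1l4a are now Sting1, Diaph1, Ube2d2a and Epb41l4a. Sequences of the probes and promoters are not shown, and 2 genes of the interval are not reported here. The alternatives were normexp with an offset of 50, quantile normalization, the percentile over detected probes, all probes, only probes above background on all 4 arrays, a robust prior with an intensity trend (statmod 1.5.0), the mean of a gene's probes, each array left out, the replicate number as a block, an adjusted p below 0.05, a 2-fold minimum, and a plain equal-variance test per probe with and without adjustment. The test used by the authors on the arrays is not named in the sources used here.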

Additional observations from a re-analysis of the deposited data

How the results depend on the processing

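The block median stayed below 0 in both sources under all alternatives. In the value table it was -0.45, and it was -0.28 with all probes kept, -0.47 with a gene's probes averaged, and -0.47 to -0.41 with 1 column left out. In the scanner data it was -0.18, -0.28 to -0.14 under other processing, and -0.33 to -0.01 with 1 array left out. The clustered protocadherin median was less stable. In the table it was -0.25, 0.034 over probes above background on all 4 arrays, and -0.49 to 0.031 with 1 column left out, the highest without EV-50 replicate 1. In the scanner data it was -0.04, and it was -0.39 with all probes kept, -0.25 in the value table, 0.03 after quantile normalization and -0.092 to 0.13 with 1 array left out, the highest without EV-50 replicate 2. The rest of chromosome 18 stayed below 0 throughout, at -0.31 to -0.27 in the table and -0.24 to -0.04 in the scanner data. The cause of these moves was not tested.

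The count of members called lower depended on the fit. Beside it, the share of all genes called lower in the table was 6.52%, and 2.7% with a 2-fold minimum. For the other settings that share is not given here, so that nothing was read from their counts. The count of members was 0 in the scanner data under each alternative and 30 in the value table. In the table it was 44 of 96 over probes above background on all 4 arrays, 38 with a gene's probes averaged, 61 with an intensity trend and robust prior, 66 at an adjusted p below 0.05, and 8 with a 2-fold minimum. It was 0 with all probes kept and 0 to 0 with 1 column left out. A plain equal-variance test per probe gave 8 at more than 2-fold without adjustment and 1 after Benjamini-Hochberg adjustment. With the replicate number as a block the medians were unchanged (-0.45, -0.25 and -0.29 in the table, -0.18, -0.04 and -0.14 in the scanner data) and the count of 30 became 0. Deviations of same-numbered arrays correlated at 0.57 in the scanner data and 0.06 in the table, and with 2 numbers this does not establish a pairing. Of the differences of single members under the alternatives, 840 moved by less than the spread between arrays, 125 by more, and none changed the sign of a called value. These fits without 1 array take the spread from the other line alone. Signal over background limits the protocadherins, of which 8 of 34 were above it on all 4 arrays.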
